A study of Mus musculus with 9 samples.

Results

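The genes described here are members of the NF-kB pathway and genes that it is known to switch on. They were chosen by symbol from a list of 38 genes, and the annotated probe sets of those symbols gave values for 34 of them, out of 22180 genes with a value. Nfkb1, Chuk, Traf3 and Ripk2 have no probe set named for them alone in the annotation used, so their expression was not analysed here. Expression was measured as log2 intensity on 9 Affymetrix Mouse Gene 2.0 ST arrays. All cells derive from MYCCaP, a mouse prostate cancer line from a tumour driven by a MYC transgene under a prostate-specific, androgen-responsive promoter, so every group carries that transgene. The parental group is MYCCaP grown with dihydrotestosterone (DHT), an androgen, and its 3 arrays are technical replicates of 1 sample. The vehicle group is 3 lines from recurrent tumours of castrated mice given vehicle, and the AZD1208 group is 3 lines from such tumours in mice given AZD1208, an inhibitor of the PIM kinases. Both recurrent groups are labelled as without DHT. The lines are called here by group and replicate number, as in AZD1208 2. The labels call the lines of a group biological replicates. They do not give the age or strain of the mice, or say whether each line came from a mouse of its own.

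NF-kB is a family of transcription factors that work as pairs of subunits and are held inactive by IkB proteins. Receptors for TNF, for CD40 ligand or for bacterial products act through TRAF and cIAP adaptors on the IKK kinase complex, which marks IkB proteins for destruction and frees the subunits to enter the nucleus. Target genes include IkB proteins and other inhibitors that close the loop again, along with adhesion molecules, survival genes and cytokines. In epithelial tumours the pathway is known for its part in inflammation and cell survival.

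The sequence that NF-kB subunits recognise is the kB site. The canonical 10-base kB consensus was searched on both strands of RefSeq promoters (build GRCm38.p6, 250 bases before to 50 after each annotated start), and overlapping matches were merged. Of 32851 promoters of that length, 4.51% held a match. Of 39 promoters belonging to 30 members found in the table, 15 held a match (38.5%), which gave 13 of 30 genes. Chuk and Traf3, which have no expression value here, are among the 30, and Traf3 is among the 13. A match is a description of the letters and not evidence of binding. The stretches that follow are from members whose values differed most between lines or which inhibit the pathway themselves. Each is printed 5′ to 3′ on the gene's strand, and the capitals mark the match or merged matches.
Nfkb2: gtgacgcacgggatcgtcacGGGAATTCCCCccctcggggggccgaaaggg
Rel: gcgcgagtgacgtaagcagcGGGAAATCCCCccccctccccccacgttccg
Nfkbia: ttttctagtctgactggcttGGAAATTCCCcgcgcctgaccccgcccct
Nfkbie: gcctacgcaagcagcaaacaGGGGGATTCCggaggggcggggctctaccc
Tnfaip3: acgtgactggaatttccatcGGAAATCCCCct
Tnip1: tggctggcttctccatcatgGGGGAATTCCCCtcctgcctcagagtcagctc
Csf1: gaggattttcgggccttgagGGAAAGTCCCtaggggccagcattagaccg
Tlr2: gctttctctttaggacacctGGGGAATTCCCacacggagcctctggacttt

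The Nfkb2 stretch lies at chr19:46304678-46304728 on the plus strand, with its match -39 to -29 bases from the start. That of Rel lies at chr11:23771031-23771081 on the minus strand (-92 to -82). For Nfkbia it is chr12:55492648-55492696 on the minus strand (-29 to -20), and for Nfkbie chr17:45555574-45555623 on the plus strand (-106 to -97). The Tnfaip3 stretch is chr10:19015411-19015442 on the minus strand (-12 to -3), and that of Tnip1 is chr11:54962967-54963018 on the minus strand (-58 to -47). Those of Csf1 and Tlr2 lie on chromosome 3, at chr3:107760594-107760643 (-154 to -145) and chr3:83841751-83841801 (-173 to -163), both on the minus strand. The matches of Nfkb2, Rel, Tnip1 and Tlr2 are merged from several overlapping ones, since these letters fit the consensus on both strands. The Nfkb2 promoter printed here holds another match at -11 to -2, and the last letters of its stretch, in lower case, begin that match. Further matches that are not printed lie at -8 to 2 in the Tlr2 promoter and at -125 to -116 in that of Tnfaip3. Other annotated starts of Nfkb2 also have matches. The promoters of Icam1, Birc2 and Nfkbib, described further on, held no match in this window.

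**Figure D1:**
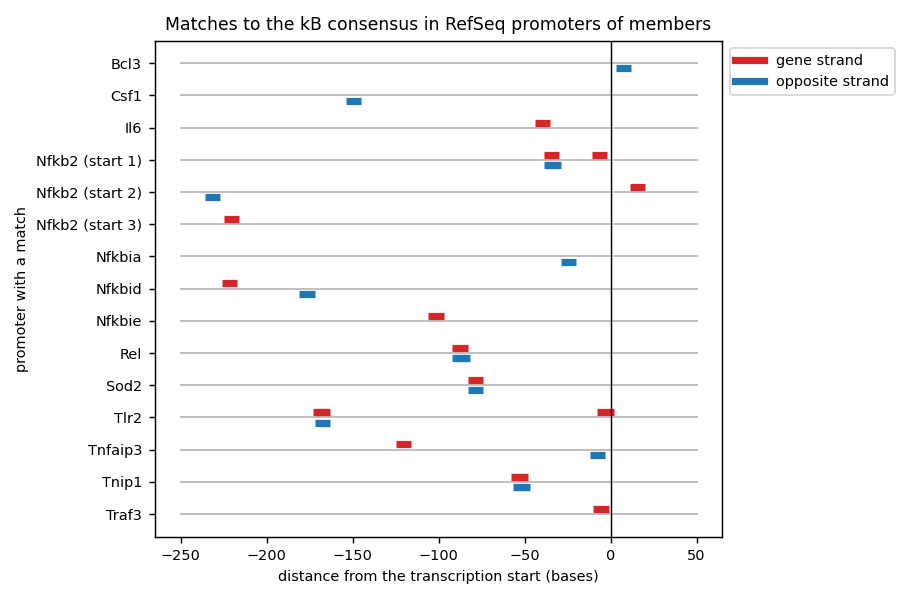
Position of each match to the kB consensus in the 15 member promoters that hold one, as distance in bases from the annotated transcription start. Red marks matches on the gene's strand and blue those on the opposite strand. Most lie before the start. Genes with several annotated starts have a line for each promoter that holds a match.

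The 9 arrays had medians between 6.22 and 6.36. AZD1208 3 had the narrowest interquartile range, 2.87 against 2.98 to 3.12 in the others, and the lowest array quality weight (0.342 on a scale where 1 is average), followed by AZD1208 2 (0.579) and vehicle 1 (0.627). The SD of a gene tested had a median of 0.09 over the technical arrays, 0.19 over the vehicle lines and 0.25 over the AZD1208 lines. Of the epithelial markers with a probe set, Krt8 (8.24 to 10.4), Cldn4 (6.61 to 8.83), Cdh1 (6.45 to 6.995) and Krt18 (6.47 to 6.99) were above the filter on dim genes, a mean of 5.81. Epcam lay below it at 4.51 to 5.06. The leukocyte marker Ptprc was at 4.49 to 5.12 in all samples.

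Members differed more between recurrent lines than genes at large did, and the line AZD1208 2 stood highest most often. The range over the 6 lines had a median of 0.90 for the 32 members above the filter and 0.63 for the 15526 genes tested. AZD1208 2 held the highest value of the 6 lines for 20 of the 32 members, against 18% of all genes tested. It held the lowest for 5 (15.6%, against 20.8% of all genes). Vehicle 2 was second for 12 of those 20 members, a share that was not counted over all genes. The lead of AZD1208 2 over the next line was smaller than the gene's technical SD for Nfkb2, Rel, Ikbkg, Tnip1, Vcam1 and Ptgs2. The lowest value lay in AZD1208 1 for 10 members and in vehicle 1 for 7, together 53.1% of the members and 31.3% of all genes. These counts were chosen after the values were seen. All 32 members stayed above the filter when their highest sample was left out of the mean. Birc3 and Il6 were the members below it. In bulk RNA such as this, more cells that express a gene and more RNA per cell cannot be told apart.

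**Figure D2:**
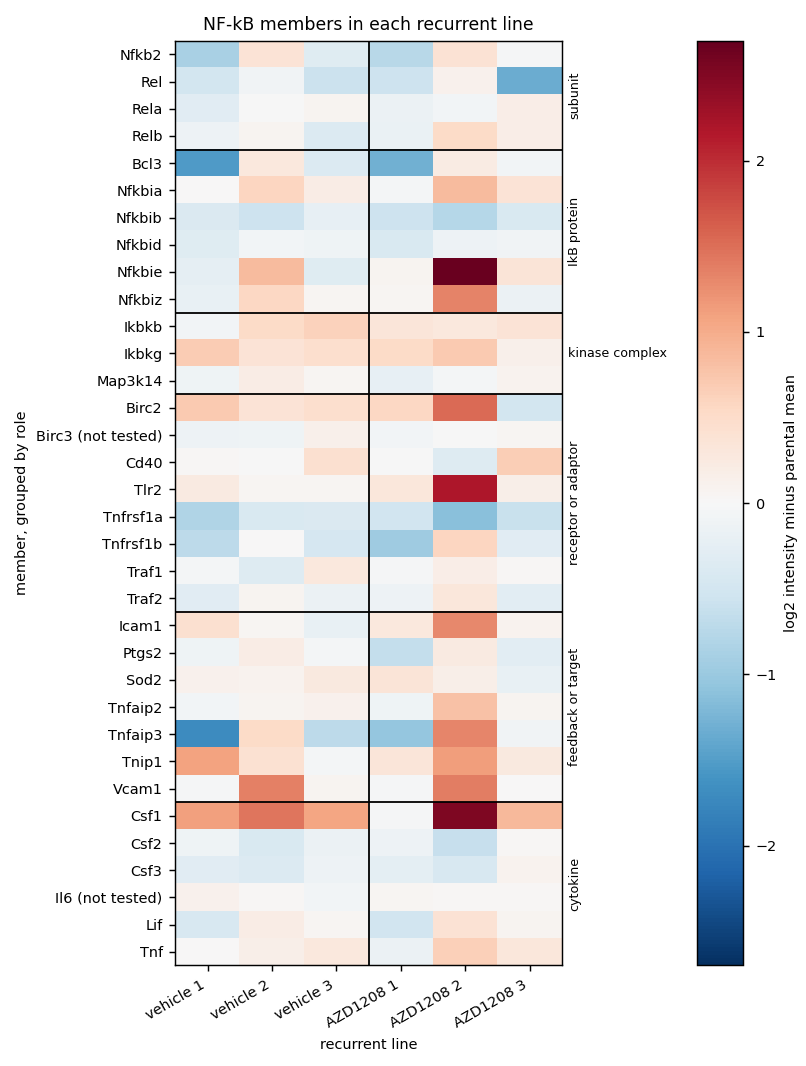
Log2 intensity of each of the 34 members in the 6 recurrent lines, minus the parental mean (red higher, blue lower). Rows are grouped by role and the vertical line separates vehicle from AZD1208 lines. The darkest red cells are Nfkbie, Csf1 and Tlr2 in AZD1208 2, and the darkest blue cells include Tnfaip3 and Bcl3 in vehicle 1.

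**Figure D3:**
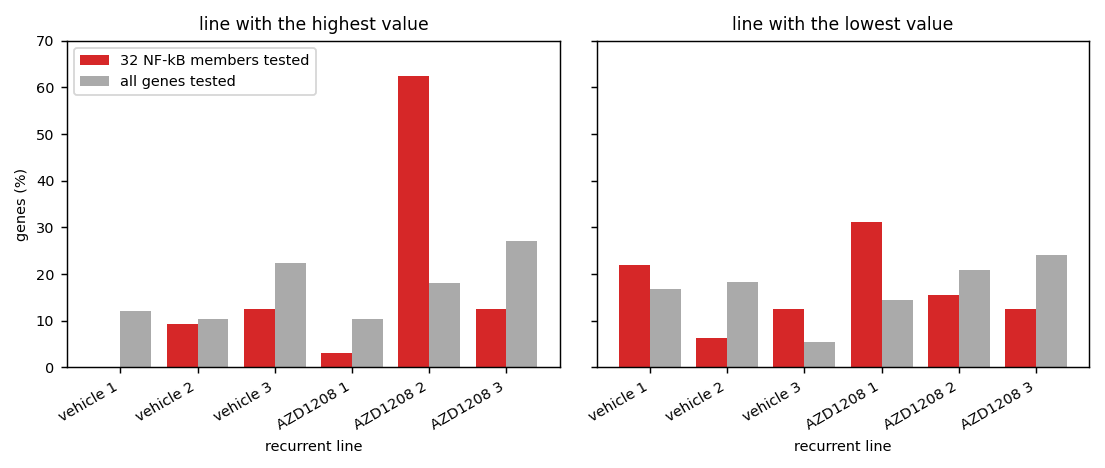
Share of genes (percent) for which each line held the highest (left) or lowest (right) value of the 6 recurrent lines, for the 32 members tested (red) and all 15526 genes tested (grey). AZD1208 2 is highest for 62.5% of members and 18% of genes, and vehicle 1 is highest for 0 members.

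Levels of other cell types' markers moved with the lines as well. The 10 fibroblast markers averaged 7.94 in AZD1208 2, 7.37 in vehicle 1, 7.19 in vehicle 2 and 6.98 to 7.06 in the other lines, against 6.55 in the parental sample. In AZD1208 2 the markers above every other line were Postn (12.7), Pdgfrb (9.78) and Dcn (6.68). Pdgfra was at 9.84 there and at 10.03 in vehicle 1, while the collagen genes Col1a1 (7.33), Col1a2 (6.84) and Col3a1 (6.61) were at or below their parental values of 7.34, 7.11 and 6.77. Thy1 was at its lowest of all samples in AZD1208 2 (6.82), and Fbln2 was at 8.18 there and 9.36 in vehicle 1. Of the 10 fibroblast markers Dcn and Lum had means below the filter. The 10 myeloid markers averaged 6.58 in vehicle 2, 6.47 in AZD1208 2 and 6.36 in vehicle 1, against 6.18 in the parental sample and 6.07 to 6.23 in the other lines. Lyz2, a lysozyme of myeloid cells, was at 7.10 in vehicle 1, 6.97 in vehicle 2 and 6.42 in AZD1208 2, against 4.74 to 5.19 in the parental sample and the other lines, with a mean below the filter. Several myeloid markers went the other way. In AZD1208 2 Ptprc (4.49) was at its lowest of all samples, and Csf1r (6.17), Fcer1g (6.62) and Itgam (5.75) were below their parental values of 6.33, 6.83 and 5.89. Csf1r was lowest in vehicle 2 (5.93). Cd68 was highest in AZD1208 2 at 8.08, against 7.04 to 7.57 in the other samples. Adgre1 was at 6.55 in vehicle 2 and 6.22 in vehicle 1, against 5.61 in the parental sample and 5.72 in AZD1208 2. Tyrobp was highest in vehicle 2 (6.84), with AZD1208 3 next (6.78). Aif1, with a mean below the filter, was highest in AZD1208 2 (6.08). Cd14, itself a sensor of bacterial products, was at 8.86 in AZD1208 2 and 8.81 in vehicle 2 but also at 8.09 in the parental sample. Endothelial (5.75 to 6.02) and lymphocyte markers (5.78 to 6.34) were highest in AZD1208 3. The part of these markers in the members' values was not tested.

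Among the subunits, Nfkb2 and Rel varied widely between lines while Rela hardly did. Nfkb2 (probe set 17359967), the precursor subunit of the non-canonical branch, was at 9.70, 9.54 and 9.55 on the parental arrays. Its values were 8.73, 9.96 and 9.28 in vehicle lines 1 to 3 and 8.85, 9.996 and 9.58 in AZD1208 lines 1 to 3. Vehicle 1 and AZD1208 1 were therefore low and vehicle 2 and AZD1208 2 high, in both groups over a wider span than the technical SD of 0.09. AZD1208 2 and vehicle 2 differed by 0.04, less than that SD. Rel, the subunit best known from lymphocytes, was at 8.80, 9.06 and 8.64 on the parental arrays, at 8.34, 8.74 and 8.26 in vehicle lines and at 8.27, 8.95 and 7.49 in AZD1208 lines. Its lowest line was AZD1208 3, and AZD1208 2 was the only line above the parental mean. Rela, which carries the main activating domain of the family, ranged from 11.31 to 11.79 over the lines, a span that 70.2% of the genes tested exceeded. Relb, the partner of the processed Nfkb2 product, was at 7.55, 7.44 and 7.67 on the parental arrays, at 7.43, 7.63 and 7.18 in vehicle lines and at 7.39, 8.08 and 7.74 in AZD1208 lines. The groups overlapped, with AZD1208 2 highest and vehicle 3 lowest.

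Of the IkB proteins, Nfkbie had the largest departure of a member from its parental value. Nfkbie (17337927), which binds subunits in the cytoplasm and is itself a target gene, was at 7.14, 7.28 and 7.34 on the parental arrays. It was at 7.01, 8.11 and 6.93 in vehicle lines and at 7.34, 9.93 and 7.60 in AZD1208 lines. AZD1208 2 was 6.38-fold above the parental mean and vehicle 2 was the next line, 1.82 lower on the log2 scale. The remaining 4 lines lay within 0.35 of the parental mean. Nfkbia (17281219), the IkB that is resynthesised first after activation, was at 10.44, 10.36 and 10.29 on the parental arrays, at 10.36, 10.95 and 10.55 in vehicle lines and at 10.31, 11.21 and 10.74 in AZD1208 lines. It shared the order of lines at the top, AZD1208 2 above vehicle 2, over a smaller span of 0.90. Nfkbiz, a nuclear IkB that acts as a co-activator, was at 7.52, 7.35 and 7.52 on the parental arrays, at 7.27, 8.03 and 7.52 in vehicle lines and at 7.52, 8.81 and 7.30 in AZD1208 lines. Here too AZD1208 2 and vehicle 2 were the lines above the rest.

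Bcl3, a nuclear IkB that partners Nfkb2 products, differed mainly by lines that were low. Its parental arrays were at 9.64, 9.58 and 9.76, its vehicle lines at 8.14, 9.95 and 9.29 and its AZD1208 lines at 8.36, 9.89 and 9.58. Vehicle 1 and AZD1208 1 lay 1.52 and 1.30 below the parental mean, while vehicle 2 and AZD1208 2 differed from each other by 0.07. Nfkbib went the other way. It was at 10.65, 10.69 and 10.62 on the parental arrays, at 10.27, 10.09 and 10.44 in vehicle lines and at 10.09, 9.88 and 10.24 in AZD1208 lines. All 6 lines were below all parental arrays, and AZD1208 2 was the lowest. Nfkbid, another nuclear IkB, was also below the parental mean (6.64) in 6 of 6 lines, at 6.24 to 6.56, where vehicle 2, vehicle 3, AZD1208 2 and AZD1208 3 lay about a technical SD (0.11) below.

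Of the kinase complex, Ikbkb varied most, over a range of 0.71 that 40.6% of the genes tested exceeded. Ikbkg, its regulatory subunit NEMO, was at 9.04, 9.05 and 8.79 on the parental arrays, at 9.64, 9.33 and 9.42 in vehicle lines and at 9.48, 9.67 and 9.11 in AZD1208 lines. All lines lay above the parental mean of 8.96, AZD1208 3 by 0.15, about the technical SD of 0.14. Ikbkb, the catalytic subunit that drives IkB destruction, was at 9.04, 8.998 and 8.99 on the parental arrays, at 8.93, 9.52 and 9.64 in vehicle lines and at 9.33, 9.30 and 9.38 in AZD1208 lines. Vehicle 1 alone was below the parental mean. Map3k14, the kinase NIK of the non-canonical branch, ranged from 7.07 to 7.51 around a parental mean of 7.30.

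Among the receptors, Tlr2 and Tnfrsf1b were highest in AZD1208 2, while Tnfrsf1a and Cd40 were lowest there. Tlr2 (17406279), a receptor for bacterial lipoproteins, was at 6.64, 6.41 and 6.61 on the parental arrays, at 6.80, 6.60 and 6.61 in vehicle lines and at 6.85, 8.73 and 6.72 in AZD1208 lines. AZD1208 2 was 4.53-fold above the parental mean and the other 5 lines were 0.04 to 0.30 above it, where the technical SD was 0.12. Tnfrsf1b, the inducible TNF receptor, was at 9.17, 9.08 and 9.18 on the parental arrays, at 8.43, 9.16 and 8.69 in vehicle lines and at 8.18, 9.71 and 8.83 in AZD1208 lines. Only AZD1208 2 was clearly above the parental arrays, and AZD1208 1 was the lowest. Tnfrsf1a, the broadly expressed TNF receptor that carries a death domain, was at 10.18, 9.95 and 10.23 on the parental arrays. It was at 9.31, 9.70 and 9.72 in vehicle lines and at 9.60, 8.98 and 9.53 in AZD1208 lines. Every line lay below every parental array, with AZD1208 2 the lowest, so the TNF receptors had opposite extremes in that line. Cd40 ranged from 6.24 in AZD1208 2 to 7.26 in AZD1208 3, around a parental mean of 6.59.

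Among the adaptors Birc2, which encodes cIAP1, a ubiquitin ligase of the receptor complex, spread most. It was at 6.77, 6.84 and 6.97 on the parental arrays, at 7.56, 7.24 and 7.31 in vehicle lines and at 7.41, 8.38 and 6.36 in AZD1208 lines. AZD1208 2 was highest and AZD1208 3 lowest, and the other 4 lines stood between 0.38 and 0.70 above the parental mean. Birc3, its close relative and a known target gene, lay below the filter at 5.58 to 5.86. Traf1 ranged from 5.68 to 6.31 and Traf2 from 8.85 to 9.45, both adaptors with lines on both sides of the parental mean.

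The feedback inhibitor Tnfaip3 (17239597), a ubiquitin-editing enzyme that shuts the pathway down, had the widest range of all members, 8.12-fold between lines. Its parental arrays were at 9.12, 9.09 and 8.92, its vehicle lines at 7.33, 9.56 and 8.33 and its AZD1208 lines at 7.99, 10.36 and 8.95. Vehicle 1 lay 1.70 below the parental mean and AZD1208 2 lay 1.32 above it, so the line values straddled the parental sample in each group. Only 0.593% of all genes tested had a wider range. Tnip1, which helps Tnfaip3 reach its substrates, was at 8.79, 8.69 and 8.78 on the parental arrays, at 9.84, 9.17 and 8.70 in vehicle lines and at 9.07, 9.88 and 9.01 in AZD1208 lines. Vehicle 1 and AZD1208 2 were both high and differed by 0.04, within the technical SD of 0.06. Tnip1 was thus high in the line where Tnfaip3 was lowest.

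Adhesion genes gave distinct line patterns. Icam1, a ligand for leukocyte integrins, was at 7.48, 7.40 and 7.46 on the parental arrays, at 7.88, 7.51 and 7.24 in vehicle lines and at 7.74, 8.74 and 7.55 in AZD1208 lines. AZD1208 2 was 2.45-fold above the parental mean and the next line, vehicle 1, was 0.86 lower. Vcam1, another such ligand, was at 6.17, 6.33 and 6.06 on the parental arrays, at 6.15, 7.55 and 6.25 in vehicle lines and at 6.15, 7.58 and 6.19 in AZD1208 lines. It was high in vehicle 2 and AZD1208 2, which differed by 0.03, and within 0.06 of the parental mean in the others. Tnfaip2 ranged from 6.41 to 6.64 in 5 lines and was at 7.33 in AZD1208 2. Ptgs2, the inducible prostaglandin synthase, was at 11.66, 11.73 and 11.52 on the parental arrays, at 11.52, 11.84 and 11.59 in vehicle lines and at 11.002, 11.87 and 11.35 in AZD1208 lines. Its order of lines again had AZD1208 2 and vehicle 2 at the top, 0.04 apart, and AZD1208 1 at the bottom. Sod2, the mitochondrial superoxide dismutase, ranged from 11.38 to 11.93 and was lowest in AZD1208 3.

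Of the cytokines, Csf1 spread most between lines. Csf1 (17409075), the growth factor of macrophages, was at 8.97, 8.80 and 8.70 on the parental arrays, at 9.94, 10.26 and 9.89 in vehicle lines and at 8.79, 11.35 and 9.70 in AZD1208 lines. AZD1208 2 was 5.76-fold above the parental mean, while AZD1208 1 was at the parental level and the other 4 lines stood 0.87 to 1.44 above it. Lif, a cytokine of the interleukin-6 family, was at 7.38 to 8.27, with AZD1208 1 and vehicle 1 low and AZD1208 2 high. Tnf ranged from 6.35 to 6.82 in 5 lines and was at 7.15 in AZD1208 2. Csf3, the granulocyte growth factor, was at 7.15, 7.13 and 7.09 on the parental arrays, at 6.82, 6.75 and 6.99 in vehicle lines and at 6.87, 6.69 and 7.22 in AZD1208 lines. AZD1208 3 was the only line above its parental mean. Csf2 had 2 probe sets, and the brighter ranged from 5.75 in AZD1208 2 to 6.42 in AZD1208 3. Il6, a classical target gene, was at 3.56 to 3.73 in all samples, below the filter.

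**Figure D4:**
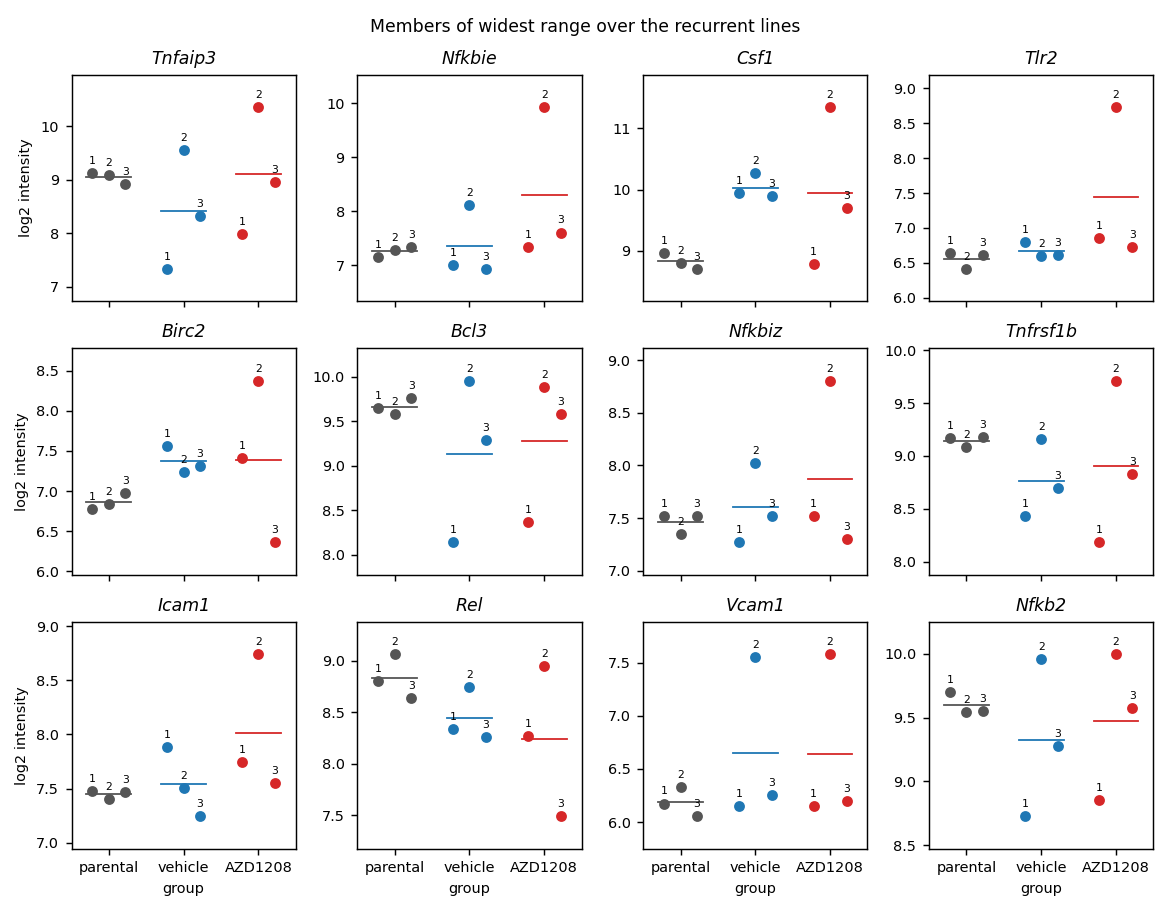
Log2 intensity on each array for the 12 members of widest range over the recurrent lines. Points are arrays, numbered by replicate, horizontal bars are group means, and the parental points are technical replicates. AZD1208 2 is the highest line for 11 of the 12 members, all but Bcl3. The 12 were chosen by a range that the highest line itself helps set. The same share among other genes of wide range was not counted.

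The first comparison asked whether lines from AZD1208-treated mice differ from lines of vehicle mice. No member was called. Of 32 members tested, 19 were higher and 13 lower in AZD1208 lines, with a median difference of 0.07 on the log2 scale. Over all 15526 genes 45.2% were higher, with a median of -0.02. The adjusted threshold of 0.05 (limma, Benjamini-Hochberg over all genes) was passed by 0 members and by 0% of all genes, and an unadjusted p under 0.05 was found for 0 members and 81 genes (0.522%). Groups did not overlap for 0 members, against 1.41% of all genes higher and 1.98% lower.

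Tlr2 had the smallest p of the members. The AZD1208 lines averaged 7.44 ± 1.13 (SD, n = 3) and the vehicle lines 6.67 ± 0.11 (SD, n = 3), a difference of 0.77 (SE 0.50; limma adjusted p = 1). Nfkbie differed by 0.94 (SE 0.68), Tnfaip3 by 0.69 (SE 0.71), Icam1 by 0.46 (SE 0.33) and Relb by 0.32 (SE 0.22), all higher in AZD1208 lines. Ptgs2 (-0.24, SE 0.24), Tnfrsf1a (-0.21, SE 0.22) and Nfkbib (-0.19, SE 0.17) were lower. For these 8 members the limma adjusted p was 1 and the unadjusted p lay between 0.166 and 0.37. The 95% interval of the Nfkbie difference ran from -0.66 to 2.54, so these lines leave room for large differences either way. The interval for Rela ran from -0.34 to 0.47.

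With AZD1208 2 left out and all vehicle lines kept, the higher means were smaller. Then Tlr2 differed by 0.12, Nfkbie by 0.12, Tnfaip3 by 0.06, Icam1 by 0.10 and Relb by 0.15. The number of members higher in AZD1208 lines was then 10 of 32, with a median of -0.09, while over all genes it was 46.1% with a median of -0.02. Leaving this line out lowers the AZD1208 mean by construction for the members where it was highest. With any other single line left out, 16 to 22 of 32 members were higher. The difference for Ptgs2 became -0.47 without AZD1208 2, that for Tnfrsf1a -0.01 and that for Nfkbib -0.10. Csf1, singled out after its values were seen, differed by -0.09 with all lines and by -0.79 without it. With array quality weights 11 of 32 members were higher, and the median was -0.14. These weights were 2.87 for AZD1208 1, the line lowest for 10 members, 0.579 for AZD1208 2 and 0.342 for AZD1208 3. For vehicle lines 1 to 3 they were 0.627, 1.67 and 1.36.

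Set against the vehicle line of the same number, a comparison added after seeing the data, Tnfaip3 was higher in each AZD1208 line, by 0.66, 0.80 and 0.62 for numbers 1 to 3. Its difference was of like size in the pairs without AZD1208 2, a mean of 0.64. With the replicate number as a block its unadjusted p was 0.00333 (SE 0.15; limma adjusted p = 1), beside 0.358 without the block. Nfkbie was also higher in each pair, by 0.33, 1.82 and 0.67, with a blocked unadjusted p of 0.0197 (limma adjusted p = 1). Tlr2 differed by 0.06, 2.14 and 0.11, so its mean lay mostly in pair 2, and Nfkb2 differed by 0.13, 0.04 and 0.30. Nfkbib was lower in each pair, by nearly the same amount (-0.18, -0.20 and -0.19). In all, 4 of 32 members were higher in 3 of 3 pairs, against 7.08% of all genes, and 1 was lower in 3 of 3, against 9.65%. With the block 2 members (Tnfaip3 and Nfkbie) and 169 genes (1.09%) had an unadjusted p under 0.05, and 0 members and 0 genes passed the adjusted threshold (limma). Members higher numbered 13 in pair 1, 22 in pair 2 and 18 in pair 3, with medians of -0.04, 0.22 and 0.03. The labels do not state that the numbers mark pairs.

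**Figure D5:**
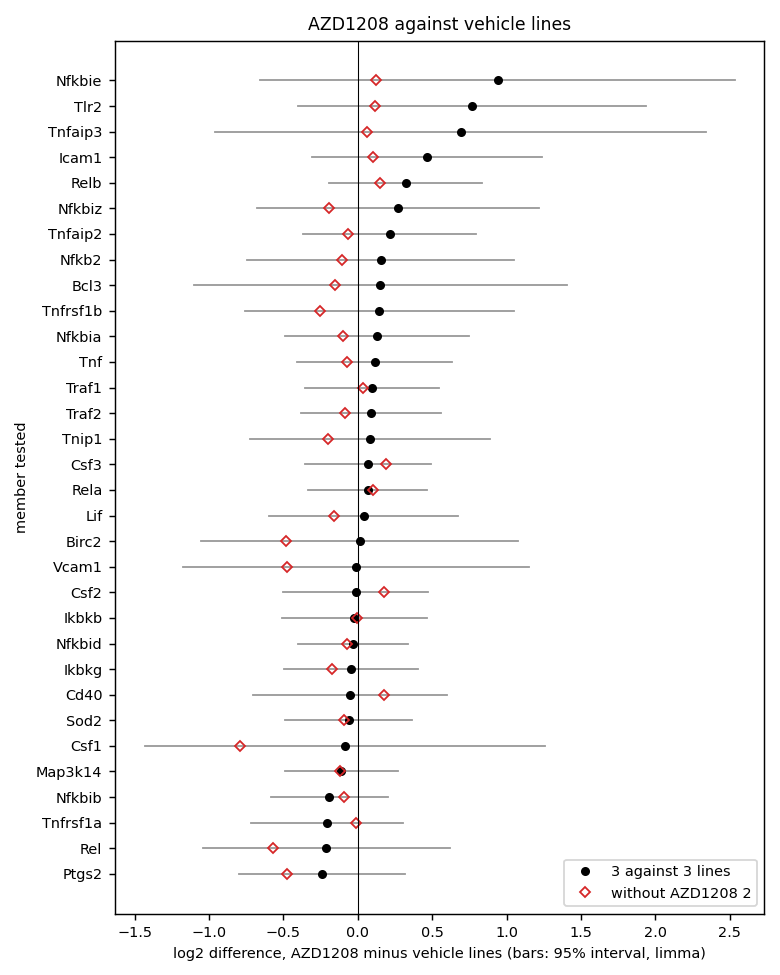
Log2 difference between AZD1208 and vehicle lines for the 32 members tested (black points, with 95% intervals from limma as grey bars) and the same difference without AZD1208 2 (red diamonds). All intervals include 0, and the diamonds of the uppermost members lie close to 0.

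Next, all 6 recurrent lines were set against the parental sample, from which they differ in the absence of DHT and in their passage through castrated mice. No member was called here either. Of 32 members 17 were higher and 15 lower, with a median of 0.01, against 45.6% of all genes higher and a median of -0.02. The adjusted threshold was passed by 0 members and 0% of all genes (limma), and an unadjusted p under 0.05 was found for 0 members and 429 genes (2.76%). All 6 lines were above the parental mean for 2 members, Ikbkg and Tlr2, where 11.8% of all genes did so. All 6 were below it for 3 members, Nfkbib, Nfkbid and Tnfrsf1a, where 10.8% of all genes did so. These shares of members, being near or under those of all genes, show nothing particular to the list.

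Tnfrsf1a had the smallest p, with a mean of 9.47 ± 0.28 (SD, n = 6) over the recurrent lines against 10.12 for parental cells. This was 1.56-fold lower (log2 difference -0.64, SE 0.29; limma adjusted p = 1), and its 95% interval ran from -1.32 to 0.03. Nfkbib was at 10.17 ± 0.19 (SD, n = 6) against 10.65, a difference of -0.48 (SE 0.22). Ikbkg was higher by 0.48 (SE 0.25) and Csf1, the cytokine that AZD1208 1 kept at its parental level, by 1.16 (SE 0.76). The others of the 8 members with the smallest p were Tnip1 (0.53, SE 0.46), Ikbkb (0.34, SE 0.28), Rel (-0.49, SE 0.47) and Csf3 (-0.23, SE 0.24). All 8 had a limma adjusted p of 1, with unadjusted p from 0.0582 to 0.359. Rel was at -0.67 without AZD1208 2 and -0.31 without AZD1208 3.

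Set against the parental sample separately, the recurrent groups gave similar medians, which share that sample and are not independent. Vehicle lines had 17 of 32 members higher with a median of 0.02, and AZD1208 lines 18 of 32 with a median of 0.08. The adjusted threshold was passed by 0 members and 0% of genes in vehicle lines, with an unadjusted p under 0.05 for 0 members and 357 genes. In AZD1208 lines it was passed by 0 members and 0% of genes, with an unadjusted p under 0.05 for 2 members and 408 genes (limma). These members were Tnfrsf1a (-0.75, SE 0.31) and Nfkbib (-0.58, SE 0.24), each with a limma adjusted p of 1.

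Further genes of the pathway were taken from a list of 50 signalling genes and a list of 49 target genes, neither of which holds a member. Of 44 signalling genes tested, 0 passed in either direction in AZD1208 against vehicle or recurrent against parental (limma), and an unadjusted p under 0.05 was found for 1 and 0 of them. Higher values in AZD1208 than in vehicle lines were found for 20 and lower for 24, with a median of -0.01. The Toll receptor adaptor Tirap had the smallest p (-0.46, SE 0.19, limma adjusted p = 1), followed by Cd27 (0.39, SE 0.20), Nod1, a sensor of bacterial cell walls (0.53, SE 0.27), and Traf5 (0.26, SE 0.16). Nod1 was at 8.02 in AZD1208 2 and 6.75 to 7.10 in the other lines. In recurrent lines against the parental sample 25 signalling genes were higher and 19 lower. The members of this list with the smallest p were the interleukin-1 receptor Il1r1 (1.06, SE 0.54), Tlr6 (0.84, SE 0.47), the lymphotoxin receptor Ltbr (-0.46, SE 0.27) and Rbck1 (-0.49, SE 0.29), a subunit of the linear ubiquitin ligase.

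Of 42 target genes tested, 0 passed in either direction in these comparisons (limma), with 0 at an unadjusted p under 0.05 in each, and 26 were higher in AZD1208 than in vehicle lines (median 0.06). The members of smallest p were the survival gene Bcl2l1 (-0.50, SE 0.25), the prostaglandin E synthase Ptges (-0.56, SE 0.29), the chemokine Cxcl10 (0.33, SE 0.19) and the lymphotoxin gene Lta (0.24, SE 0.16). In recurrent lines 24 were higher than in the parental sample. Saa3, an acute phase protein, was at 11.1, 11.1 and 7.46 in vehicle lines and 8.97, 11.3 and 8.33 in AZD1208 lines, against 6.48 in the parental sample (difference 3.23, SE 1.49; limma adjusted p = 1). Lcn2, an iron-binding antibacterial protein, was at 10.001, 10.26 and 8.01 in vehicle lines and 8.45, 11.3 and 7.37 in AZD1208 lines, against 7.01 (2.23, SE 1.36). Cebpd (0.65, SE 0.34) was also higher and the growth factor gene Pdgfb (-0.63, SE 0.31) lower. In both of the longer lists AZD1208 2 was the highest line more often than among all genes. It was so for 18 of 44 signalling genes (40.9%) and 19 of 42 target genes (45.2%), beside 62.5% of the members and 18% of all genes. The lists were chosen with earlier results of these data known, and this count was added after the values were seen. By the median over the list minus the parental value, AZD1208 2 was at 0.29 for signalling genes, above the other lines (-0.07 to 0.03). For target genes it was at 0.12, as was AZD1208 3 (0.12), so it did not stand apart there.

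The kB matches can be set beside these line values. Of the members tested with a promoter in the table, 11 had a match and 15 had none. AZD1208 2 was the highest line for 8 of the 11 with a match, at a median of 0.84 above the parental mean, and for 9 of the 15 without, at a median of 0.30. Over all genes tested AZD1208 2 was the highest line for 18%. Its lead over the next line was smaller than the technical SD for Nfkb2, Rel and Tnip1 among the 8. The same held for Ikbkg and Ptgs2 among the 9. Bcl3, Nfkbid and Sod2 had a match, but another line was highest. The difference between these sets was not tested. Relb, Nfkbiz, Vcam1, Ikbkb, Cd40 and Csf3 had no promoter to search and are in neither set. Nfkbie, Tlr2 and Csf1, the members with the largest departures in AZD1208 2, all had a match, while Birc2 and Icam1, for which AZD1208 2 was also the highest line, had none.

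Members that ran together at the bottom of the order also recurred. Vehicle 1 and AZD1208 1 were the 2 lowest lines for 12 of 32 members (37.5%, against 9.3% of all genes), among them Nfkb2, Bcl3, Tnfaip3, Tnfrsf1b, Lif and Tnf. Vehicle 2 and AZD1208 2 were the 2 highest for 13 members (40.6%, against 8.22% of all genes), among them Nfkb2, Nfkbia, Nfkbie, Nfkbiz, Tnfaip3, Vcam1 and Csf1. Each of these pairs holds 1 vehicle and 1 AZD1208 line of the same replicate number, though the labels do not state that the numbers mark pairs. Both pairs were picked after the values were seen, so these shares are a description with no test. By role, the median over members in AZD1208 2 minus the parental mean was 1.13 for feedback and target genes, 0.535 for IkB proteins, 0.38 for cytokines, 0.30 for receptors and adaptors, 0.29 for the kinase complex and 0.26 for the subunits. These were the highest medians of the 6 lines except for the kinase complex, where vehicle 3 (0.46), vehicle 2 (0.37) and AZD1208 1 (0.33) were higher.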

How the data were processed

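The deposited values are log2 intensities of 41345 probe sets on 9 arrays, which the authors made with oligo per the submitters' processing notes; its version, background correction and normalization are not stated in the labels. They were used as deposited. Names came from GEO's platform annotation, in which 23521 probe sets have 1 symbol, 1814 several and 16010 none. Only probe sets with 1 symbol were used, and the brightest stood for a gene. The 30% of genes of lowest mean were left out, which left 15526. The 3 parental arrays were averaged as 1 sample, and 7 samples were fitted with limma 3.58.1 in R 4.3.3 (lmFit, eBayes, group as the only term). The lone parental sample is assumed to vary like the lines. P-values are two-sided, were adjusted by Benjamini-Hochberg over all genes, and measure only the spread between these lines. No detection calls or coordinates of the array are used, and the number of arrays limits the precision. The procedure was tested on simulated data, with normal values drawn independently for each gene. The changes put in were all larger than any member's mean difference between AZD1208 and vehicle lines. That test therefore does not show whether differences of the size seen here would be found.

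The members and lists were chosen with earlier results of these data known. Differences are given for the 8 members of smallest p in each main comparison, and every line's value also for the 12 of widest range. Role groups, the patterns over lines and the motif search were chosen after values were seen. Of each longer list 4 genes of smallest p are named. Deviations of lines with the same number correlated at 0.146, 0.118 and 0.532 across genes, so the numbers were treated as a possible pairing, found in the data and not stated in the labels. Vehicle 1 and AZD1208 2, with different numbers, correlated at 0.264. Alternatives were quantile normalization, median centring, other filters, the mean of probe sets, array weights, the replicate block, parental arrays as 3 samples and each line left out.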

Additional observations from a re-analysis of the deposited data

Results flagged for a closer look

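In Tlr2 and Tnfaip2, 1 of the 6 recurrent lines lay far from the others. For Tlr2 AZD1208 2 was at 8.73 and the next line, AZD1208 1, at 6.85, and this gap made up 0.879 of the whole range, above Dixon's critical value for 6 values. For Tnfaip2 AZD1208 2 was at 7.33 and the next line, vehicle 3, at 6.64, a gap of 0.75 of the range. These were 2 of the 34 members with a value, all of which were examined. For independent normal values from 1 population, chance alone flags about 1 in 20 groups. The 6 values here pool vehicle and AZD1208 lines, so that rate is only a rough guide. Being near it, 2 of 34 shows nothing particular to the list. The share of all genes flagged in this way was not worked out. The mean of the 10 fibroblast markers was highest in the same line (7.94, against 6.98 to 7.37 in the others). Of these markers only Postn, Pdgfrb and Dcn were above every other line there, and Thy1 was lowest there. The part of these markers in the values of Tlr2 and Tnfaip2 was not tested.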

How the results depend on the processing

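The count of members called was 0 in all 4 comparisons under each alternative run. With parental arrays counted as 3 samples, which treats technical spread as biological, the genes called were 156 in recurrent lines, 53 in vehicle lines and 41 in AZD1208 lines against the parental sample, with no member among them. With array quality weights they were 1 for recurrent lines and 2 for AZD1208 lines. With single lines left out they ranged from 0 to 1 for AZD1208 lines against the parental sample and were 0 otherwise. With the replicate block, which leaves mean differences (median 0.07) as they are by construction, 0 genes and 0 members were called in AZD1208 against vehicle, so it changed no call. The smallest unadjusted p of a member moved from 0.166 (Tlr2) to 0.00333 (Tnfaip3). Of the named members, Tnfaip3 turned sign in AZD1208 against vehicle with array quality weights (-0.28). With single lines left out, the median member difference ranged from -0.09 (without AZD1208 2) to 0.17 (without AZD1208 1) in that comparison, and was also below 0 without vehicle 1 (-0.01). It ranged from -0.01 to 0.08 in recurrent lines against the parental sample. AZD1208 2 stayed the highest line for 18 (quantile normalization) to 21 of 32 members under other scalings and with single lines left out, for 20 of 34 with no filter, for 20 of 31 with the mean of probe sets and for 17 of 25 when the dimmer 50% of genes was left out. That count and its alternatives were added after seeing the data.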

Other observations

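Among the target genes outside the member list, chosen here after their values were seen, the neutrophil chemokines were high in vehicle 2 and AZD1208 2. Cxcl5 was at 10.84 and 10.58 in these lines, at 7.13 to 8.69 in the other lines and at 8.18 to 8.30 on the parental arrays. Cxcl1 was at 8.85 and 8.90 in these lines and at 7.02 to 7.31 in the others, and Cxcl2 at 9.21 and 9.40 against 7.39 to 7.97. Nos2, the inducible nitric oxide synthase, was at 9.75 in AZD1208 2, 7.58 in vehicle 2 and 6.66 to 6.98 in the others. Zc3h12a, an RNase that degrades cytokine messages, was at 9.39 in AZD1208 2 and 7.59 to 8.03 in the others. Cfb, a complement factor, was at 7.85 in AZD1208 2 and 5.89 to 6.26 in the others. Other genes of this list went the other way and were lowest in AZD1208 2. Among them were Ptges (10.07, against 10.4 to 11.5 in the other lines), Tnfsf9 (8.02), Cd83 (6.90) and Mmp9 (5.99).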
